A study of Mus musculus with 16 samples.

Results

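T cell receptors of tumour infiltrating cells were compared between mice with and without a floxed Matr3 gene 14 days after tumour cells were placed in the liver. The comparison covers 4 receptor libraries, 2 of each genotype, chosen by their titles. They hold 3538 of the 5908 cells with a productive receptor chain in the 8 receptor libraries of the series. The tumours grew in the left lobe of the liver of C57BL/6 mice from injected Hepa1-6 cells, a mouse hepatoma line, and were dissociated into single cells for droplet capture of the 5′ end of transcripts. The control group (CON) had the genotype CD4creMatr3WT/WT and the knockout group (KO) the genotype CD4creMatr3fl/fl, so both carried the Cre transgene. The labels give neither age nor sex. Cre driven by Cd4 is active in thymocytes that later become CD4 or CD8 T cells, so both lineages can lose a floxed gene, and receptor chains do not tell the lineages apart. The product of Matr3, matrin 3, is a protein of the nuclear matrix with RNA-binding domains. Its level could not be read from receptor contigs and the loss of Matr3 was therefore not checked. Nothing in the labels says if both libraries of a genotype are from different mice, so each p-value covers the spread between libraries alone, which may be technical.

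A T cell builds its receptor from an alpha chain (TRA), which joins a V and a J segment, and a beta chain (TRB), which joins a V, a D and a J segment. Bases trimmed and added at the joints make the third complementarity-determining region (CDR3), the loop that meets the peptide held by a major histocompatibility complex molecule. All daughters of 1 T cell carry its receptor, so cells with the same chains form a clone, and the size of a clone records how far that cell has divided or gathered in the tumour. Because many nucleotide sequences encode the same amino acids, unrelated cells can reach the same protein chain by different joints, which is called convergence. The TRA genes on both chromosomes can rearrange, so some T cells carry 2 alpha chains, while a second beta chain is rare because the first one halts further TRB rearrangement.

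Paired cells were put in 1 clonotype where the V segment, J segment and CDR3 nucleotides of both leading chains matched. CON 1 held 1404 cells, CON 2 held 825, KO 1 held 570 and KO 2 held 739. Both chains were read in 1189, 696, 478 and 572 of them in that order, and these paired cells fell into 515, 316, 265 and 342 clonotypes. The 4 libraries had 11441 to 31936 UMIs (molecules counted by their tags) in productive chains. The median leading TRA chain had 4 to 5 UMIs and the median leading TRB chain 9 to 11. CON 1 was the deepest library and KO 1 the shallowest in cells and in UMIs. Possible doublets, with 2 or more TRB or 3 or more TRA chains, made up 3.92% and 1.33% of CON cells and 2.98% and 2.03% of KO cells. Between 0 and 3 cell barcodes were found in both of any 2 libraries, and none of those had the same TRB chain in both.

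The receptors of the most frequent clonotypes differed between the libraries. The CDR3 nucleotides of the top clonotype of each library are printed below, from the first to the last codon of the loop, with the codons between the first 4 and the last 4 in capitals to mark the middle of the loop.
CON 1, TRAV14-1 / TRAJ24: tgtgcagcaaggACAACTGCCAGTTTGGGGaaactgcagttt
CON 1, TRBV19 / TRBJ1-4: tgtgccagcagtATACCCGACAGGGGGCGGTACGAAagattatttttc
CON 2, TRAV7-5 / TRAJ50: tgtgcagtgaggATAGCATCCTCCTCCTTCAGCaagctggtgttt
CON 2, TRBV13-1 / TRBJ1-1: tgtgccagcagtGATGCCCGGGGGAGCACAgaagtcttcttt
KO 1, TRAV7-4 / TRAJ5: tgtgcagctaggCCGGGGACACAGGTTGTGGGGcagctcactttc
KO 1, TRBV20 / TRBJ2-7: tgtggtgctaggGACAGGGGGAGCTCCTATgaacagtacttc
KO 2, TRAV13-3 / TRAJ50: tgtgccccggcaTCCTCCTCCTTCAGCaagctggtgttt
KO 2, TRBV13-1 / TRBJ1-1: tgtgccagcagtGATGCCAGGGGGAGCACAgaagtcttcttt

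The top clonotype of CON 1 held 98 cells, which is 8.24% of its paired cells (95% exact binomial interval 6.74% to 9.95%). In CON 2 it held 111 cells or 15.9% (13.3% to 18.9%). In KO 1 it held 63 cells or 13.2% (10.3% to 16.5%), and in KO 2 it held 73 cells or 12.8% (10.1% to 15.8%). Both KO values lay between the CON values, so the largest clonotype did not separate the genotypes. These intervals cover counting error only.

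Below the top clonotype the libraries parted. The next clonotypes of CON 1 held 87 cells (TRAV7-6 / TRAJ22 with TRBV5 / TRBJ2-7) and 68 cells (TRAV6-4 / TRAJ39 with TRBV17 / TRBJ1-1). Those of CON 2 held 45 cells (TRAV5-1 / TRAJ27 with TRBV12-1 / TRBJ2-5) and 34 cells (TRAV6-6 / TRAJ43 with TRBV13-1 / TRBJ1-1). In KO 1 the second held 32 cells (TRAV10 / TRAJ34 with TRBV12-1 / TRBJ2-5) and the third 14 cells (TRAV5-4 / TRAJ42 with TRBV13-1 / TRBJ2-2). In KO 2 both held 12 cells (TRAV6-7 / TRAJ34 with TRBV3 / TRBJ1-1, and TRAV7-6 / TRAJ22 with TRBV5 / TRBJ2-7). As a ratio, the drop from the first clonotype to the second was steepest in KO 2, from 73 to 12 cells.

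The share of cells by clone size was set side by side for the 4 libraries. Clonotypes of 1 cell held 34.7% and 34.5% of the paired cells in the CON libraries and 45% and 49.1% in the KO libraries. Clonotypes of 2 to 4 cells held 15.5%, 21.6%, 19.2% and 21.7% in the order CON 1, CON 2, KO 1, KO 2, and those of 5 to 9 cells held 8.92%, 5.32%, 8.16% and 8.57%. Clonotypes of 10 to 19 cells held 9%, 7.18%, 7.74% and 7.87%, so up to 19 cells the genotypes overlapped in each class above single cells. Clonotypes of 20 to 49 cells held 10.6% and 15.5% of CON cells against 6.69% and 0% of KO cells. KO 2 had no clonotype in that class, while CON 1 had 4, CON 2 had 3 and KO 1 had 1. Clonotypes of 50 or more cells held 21.3% and 15.9% of CON cells against 13.2% and 12.8% of KO cells. In CON 1 that class had 3 clonotypes, and in each other library it was the top clonotype alone. These classes depend on depth, since a clone of a given share has more cells in a deeper library. The 98 cells of the top CON 1 clonotype were 8.24% of its paired cells, and the 63 cells of that of KO 1 were 13.2%. The classes of 20 to 49 and of 50 or more cells were not redone at equal depth, so their separation may come from depth. In CON 1, 33 clonotypes made up 50% of the paired cells, in CON 2 27, in KO 1 38 and in KO 2 59.

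**Figure D1:**
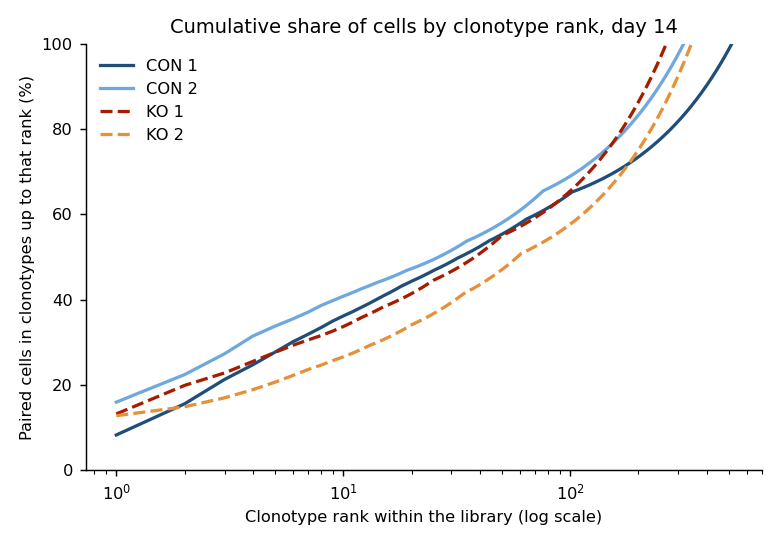
Cumulative percent of paired cells (y axis) held by clonotypes up to each rank within a library (x axis, log scale), 1 line per day 14 library, solid for CON and dashed for KO. From the second clonotype on KO 2 runs lowest and CON 2 highest, until ranks where each library is down to clonotypes of 1 cell. Beyond those ranks KO 1 passes CON 2 and KO 2 passes CON 1. CON 1 starts from the smallest top clonotype (8.24%).

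Since the libraries differ in cell number, some clone-size measures were also taken at the expectation for 478 paired cells, the number in KO 1. Of those 478 cells, 58.1% and 61% belonged to expanded clonotypes (2 or more cells) in CON and 55% and 49.1% in KO. The mean difference, KO minus CON, was -7.5 percentage points. The same draw held 248 and 236 clonotypes in CON against 265 and 295 in KO. The 10 most frequent clonotypes held 36.2% and 40.8% of all paired cells in CON and 33.7% and 26.6% in KO. Clonotypes of 10 or more cells held 40.9% and 38.6% of the cells in CON and 27.6% and 20.6% in KO, and 31.2% and 34.3% against 27.6% and 17.1% at equal depth. In each of these measures both KO libraries lay beyond both CON libraries on the side of smaller clones.

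The exact permutation test used for these measures has little power within day 14. With 2 libraries against 2, its smallest two-sided p is 0.333, and each of the measures just named had that p and an adjusted p of 0.818 over the 27 library measures compared. Of those 27 measures, 10 (37%) had KO and CON values that did not overlap, in either direction. That is near the share of 0.333 of relabelings that leave no overlap in a measure without ties. Several of the 10 describe the same clone sizes, so they are not independent. The difference in expanded cells was -4.54 points without KO 2 and -10.5 points without KO 1. The chance that 2 random cells share a clonotype was 1.98% and 3.55% in CON and 2.48% and 1.9% in KO, which overlap.

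**Figure D2:**
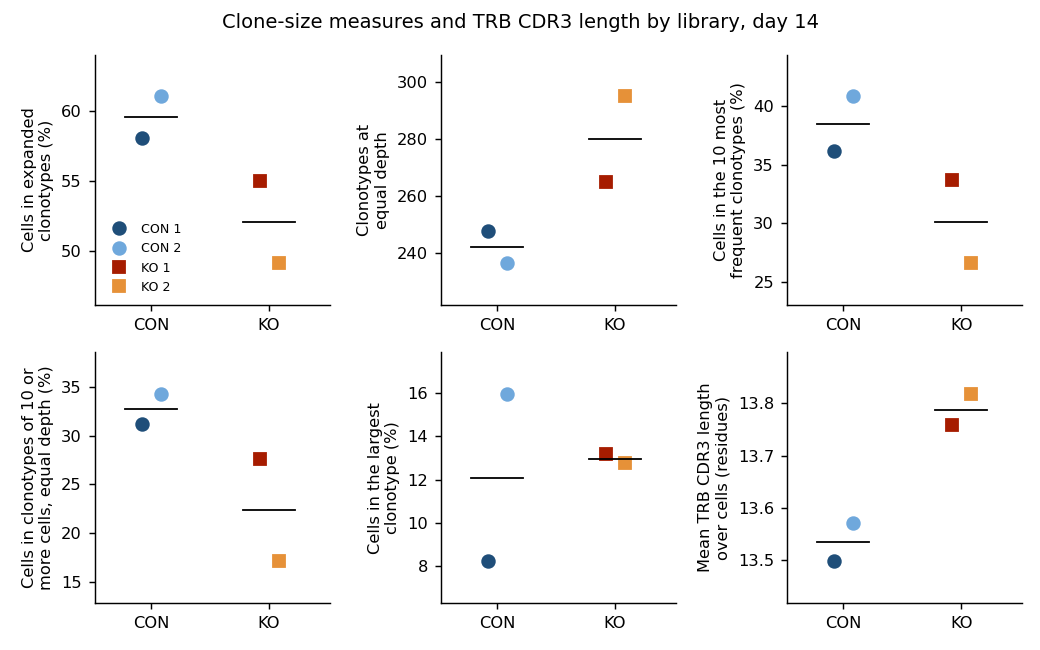
Each panel gives 1 measure on its y axis for the 4 day 14 libraries, circles for CON and squares for KO, with a bar at the group mean and axes that do not start at 0. The groups do not overlap except for the largest clonotype, where KO 1 (13.2%) and KO 2 (12.8%) lie between CON 1 (8.24%) and CON 2 (15.9%).

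At day 5 the mean share of expanded cells was also lower in KO. At a common depth of 376 paired cells, the share in expanded clonotypes was 8.16% ± 5.6 (SD, n = 2 libraries) in CON and 3.07% ± 0.963 in KO at day 5, a difference of -5.08 points. At that depth the day 14 difference was -7.57 points. The change between the days, -2.48 points, had an exact permutation p of 0.778 (two-sided, genotype labels permuted within each day, 36 relabelings, smallest possible p 0.0556). Among the 10 measures whose day 14 groups did not overlap, the smallest p for a difference between the days was 0.111 (adjusted p 0.741), for TRB CDR3 length over cells. Its KO minus CON difference was -0.097 residues at day 5 and 0.254 at day 14.

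Some receptors recurred in several libraries. Among 1276 combinations of TRAV, TRAJ, TRBV and TRBJ segments at day 14, 55 occurred in 2 or more libraries and 9 in all 4. Of those 9, 4 were iNKT-type combinations, with TRAV11 joined to TRAJ18, the alpha chain of invariant natural killer T cells, which see lipids on CD1d. The other 5 are described here because they recur, a rule chosen after their values were seen, so no test is given.

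The most abundant recurrent combination joined TRAV7-6 / TRAJ22 to TRBV5 / TRBJ2-7. It made up 8.49% of paired cells in CON 1 (101 cells in 7 clonotypes), 7.33% in CON 2 (51 cells in 6), 0.209% in KO 1 (1 cell) and 3.85% in KO 2 (22 cells in 4). Both CON libraries lay above both KO libraries. All 18 of its clonotypes had a TRA CDR3 of 12 residues and a TRB CDR3 of 11. The alpha chains of the largest clonotype in each library shared every base from the first capital on and differed before it, as printed here with the same use of capitals.
CON 1 alpha, 87 cells: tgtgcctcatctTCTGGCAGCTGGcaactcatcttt
CON 2 alpha, 29 cells: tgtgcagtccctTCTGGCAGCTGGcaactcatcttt
KO 1 alpha, 1 cell: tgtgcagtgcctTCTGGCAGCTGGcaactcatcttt
KO 2 alpha, 12 cells: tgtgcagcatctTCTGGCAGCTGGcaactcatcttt

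The combination TRAV10 / TRAJ27 with TRBV12-1 / TRBJ2-5 held 41 cells in CON 1, 18 in CON 2, 11 in KO 1 and 3 in KO 2, or 3.45%, 2.59%, 2.3% and 0.524% of paired cells. KO lay below CON, by little in KO 1. Its 7 clonotypes had a TRA CDR3 of 14 residues and a TRB CDR3 of 12, each with its own nucleotides. The combination TRAV7-4 / TRAJ5 with TRBV20 / TRBJ2-7 went the other way. It was the top clonotype of KO 1 (63 cells, 13.2%) and held 4 cells in KO 2, 3 in CON 1 and 1 in CON 2. Its 5 clonotypes had CDR3 loops of 15 and 14 residues. The TRB loops of the largest clonotype of each library shared their ends and differed in the first codons of the middle part.
CON 1 beta, 2 cells: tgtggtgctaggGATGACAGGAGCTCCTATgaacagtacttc
CON 2 beta, 1 cell: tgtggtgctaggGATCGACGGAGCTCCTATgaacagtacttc
KO 1 beta, 63 cells: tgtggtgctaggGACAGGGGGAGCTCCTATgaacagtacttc
KO 2 beta, 4 cells: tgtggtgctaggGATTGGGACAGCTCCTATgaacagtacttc

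The 2 rarer combinations were TRAV9-1 / TRAJ23 with TRBV3 / TRBJ2-7 (11, 1, 2 and 1 cells in the order CON 1, CON 2, KO 1, KO 2) and TRAV6-7 / TRAJ34 with TRBV19 / TRBJ1-3 (1 cell in each library). All 5 combinations together held 13.2% and 10.3% of paired cells in CON and 16.3% and 5.42% in KO, which overlap. None of the 1852 paired cells of the day 5 libraries carried any of the 5, which allows a share of up to 0.162% there. At day 5, 18 combinations were in all 4 libraries, and all 18 were iNKT-type.

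**Figure D3:**
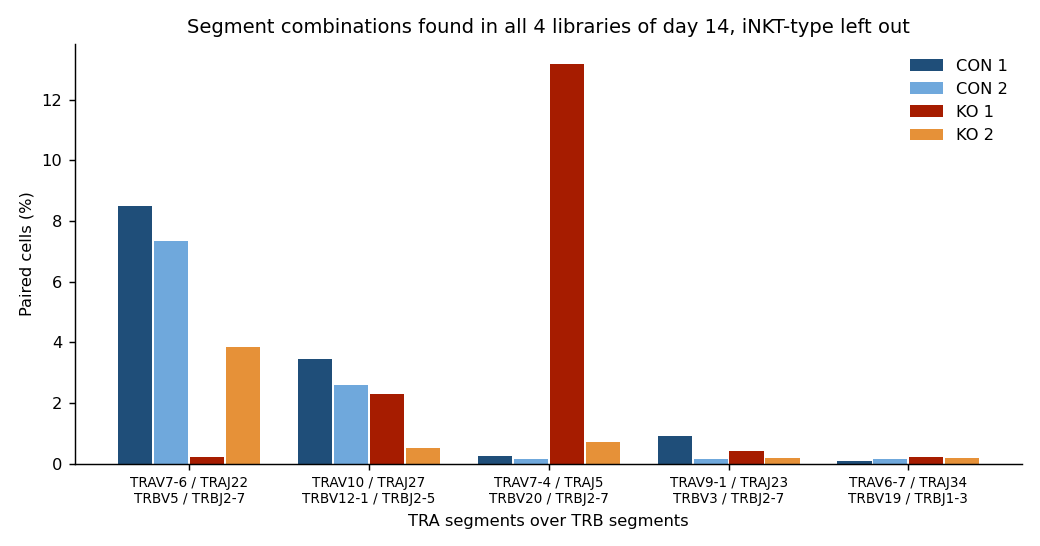
Percent of paired cells (bars, y axis from 0) in each of the 5 segment combinations that recur in all 4 day 14 libraries, iNKT-type left out, with 1 bar per library. CON 1 and CON 2 stand above both KO libraries for the first 2 combinations, and KO 1 reaches 13.2% for the third.

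Convergent beta chains were counted as TRB clonotypes with the same V, J and CDR3 amino acids but different nucleotides. Of 1625 TRB amino acid clonotypes in the 4 libraries, 31 had 2 or more nucleotide versions, 6 had 3 or more, and 29 were found in 2 or more libraries. Of those 29, 25 were in at least 1 CON and 1 KO library, 2 in the CON libraries alone and 2 in the KO libraries alone, and 22 had no nucleotide version that was common to all the libraries they were in.

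The chain with the most versions joined TRBV5 to TRBJ2-7 in a loop of 11 residues, the beta segments and loop length of the most abundant recurrent combination. That combination is defined by segments, held 51 paired cells in CON 2, and its clonotypes did not all carry this beta protein. The chain had 6 nucleotide versions and was in 112 cells of CON 1, 3 of CON 2, 2 of KO 1 and 24 of KO 2. Of its 128 paired cells, 119 had TRAV7-6 / TRAJ22. The versions, with capitals at the 3 positions where they differ, are these.
Version 1, 96 cells in CON 1, 1 in KO 1 and 6 in KO 2: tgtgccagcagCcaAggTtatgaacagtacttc
Version 2, 15 cells in KO 2: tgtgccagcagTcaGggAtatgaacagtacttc
Version 3, 5 cells in CON 1, 1 in KO 1 and 3 in KO 2: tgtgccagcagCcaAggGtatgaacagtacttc
Version 4, 6 cells in CON 1: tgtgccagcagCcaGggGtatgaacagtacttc
Version 5, 5 cells in CON 1: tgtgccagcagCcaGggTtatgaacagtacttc
Version 6, 3 cells in CON 2: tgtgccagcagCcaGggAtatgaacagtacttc

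A second chain linked the largest clones of CON 2 and KO 2. TRBV13-1 / TRBJ1-1 in a loop of 14 residues was the beta chain of 151 cells of CON 2, 18.9% of its TRB cells, and of 86 cells of KO 2, 11.9%. It was in no cell of CON 1 or KO 1. The 3 nucleotide versions differ at 3 positions, in capitals, and no version was in both libraries.
Version 1, 150 cells in CON 2: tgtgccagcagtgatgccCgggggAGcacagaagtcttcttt
Version 2, 86 cells in KO 2: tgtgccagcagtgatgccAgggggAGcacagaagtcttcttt
Version 3, 1 cell in CON 2: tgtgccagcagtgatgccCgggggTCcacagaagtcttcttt
Both clones also carried a TRAV6-6 / TRAJ43 alpha chain of 12 residues, the same nucleotides in 110 cells of CON 2 and 54 cells of KO 2.
TRAV6-6 / TRAJ43 alpha: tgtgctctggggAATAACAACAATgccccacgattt
Beside it CON 2 carried TRAV7-5 / TRAJ50 and KO 2 carried TRAV13-3 / TRAJ50, whose sequences stand above. The same alpha nucleotides thus stood beside 1 beta version in the CON library and beside another in the KO library, with the same beta protein.

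Of the other chains with the most versions, TRBV1 / TRBJ2-7 had 4, with 2, 13 and 2 cells in CON 2, KO 1 and KO 2, and 11 of its 12 paired cells had TRAV6-6 / TRAJ43. TRBV19 / TRBJ1-3 had 4, with 1, 4 and 2 cells in those libraries. Within a library, pairs of TRB nucleotide clonotypes with the same protein numbered 34.2 per 1000000 pairs in CON 1, 106 in CON 2, 133 in KO 1 and 66.6 in KO 2. The share of TRB amino acid clonotypes with 2 or more versions was 0.169%, 1.96%, 1.35% and 0.952%. Both measures overlapped between the genotypes, with exact permutation p of 0.667 and 1 (two-sided). Between libraries, the chains found in both numbered 28.5 per 1000000 pairs for the CON libraries, 56.3 for the KO libraries and 32.3 to 86.7 for the 4 pairs of a CON with a KO library.

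V and J segment use was compared in cells and also with each chain clonotype counted once per library, because 1 large clone moves the first count and not the second. Shares were tested with edgeR's quasi-likelihood test over the 4 libraries, with Benjamini-Hochberg adjustment over all segments tested in that count. Among 100 segments tested per cell none passed an adjusted p of 0.05 (0% called) and 5 had an unadjusted p below it. KO lay above both CON libraries for 19% of them and below both for 15%. Among 88 segments tested per clonotype none passed (0% called) and 5 had an unadjusted p below 0.05. KO lay above for 14.8% of them and below for 21.6%.

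Per clonotype the segment with the smallest p was TRBV12-1, a Vbeta5 segment. It was in 2.87% of TRB clonotypes in CON 1, 3.85% in CON 2, 6.64% in KO 1 and 6.35% in KO 2, from 17, 14, 20 and 27 clonotypes. The log2 fold change, KO over CON, was 0.99 ± 0.25 (SE) with an edgeR adjusted p of 0.213. TRBV12-2, the other Vbeta5 segment, was in 3.71%, 3.85%, 6.31% and 7.06% (log2 fold change 0.84 ± 0.23, edgeR adjusted p 0.213). Per clonotype both Vbeta5 segments thus stood higher in both KO libraries, and neither passed the test. Per cell TRBV12-2 also lay higher in both, while TRBV12-1 overlapped. Their summed share per cell was 6.63% and 12.7% in CON and 20.5% and 10.5% in KO, which overlap. Per clonotype the sum was 6.58% and 7.69% in CON and 13% and 13.4% in KO at day 14. At day 5 the sum per clonotype was 7.61% and 5.21% in CON and 6.88% and 7.95% in KO, where the groups overlapped. Of the 2 segments, TRBV12-2 lay above CON in both KO libraries at day 5 as well (3.36% and 2.3% in CON, 4.59% and 3.53% in KO), while TRBV12-1 overlapped. These genes are close in sequence and in position (TRBV12-1 at chr6:41113567-41114067 and TRBV12-2 at chr6:41118864-41119364, GRCm38), and the deposited calls could split reads between them or give them to a joint name with TRBV13-2.

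TRBV26, at chr6:41227525-41227913, had the next smallest p and went the other way. It was in 3.71% and 4.95% of TRB clonotypes in CON and in 1.66% and 1.88% in KO, a log2 fold change of -1.21 ± 0.35 (edgeR adjusted p 0.213). At day 5 it was in 2.12% and 2.91% in CON and in 1.72% and 1.99% in KO, so KO lay below CON at both days. TRAV7-4 was in 4.33%, 4.23%, 3.14% and 1.55% of TRA clonotypes in the order CON 1, CON 2, KO 1, KO 2. TRAV9-1 was in 2.89%, 3.58%, 6.27% and 4.66%, and TRBV19 in 6.91%, 4.67%, 4.98% and 3.06% of TRB clonotypes. For these 3 the adjusted p was 0.741, and only TRBV19 overlapped.

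**Figure D4:**
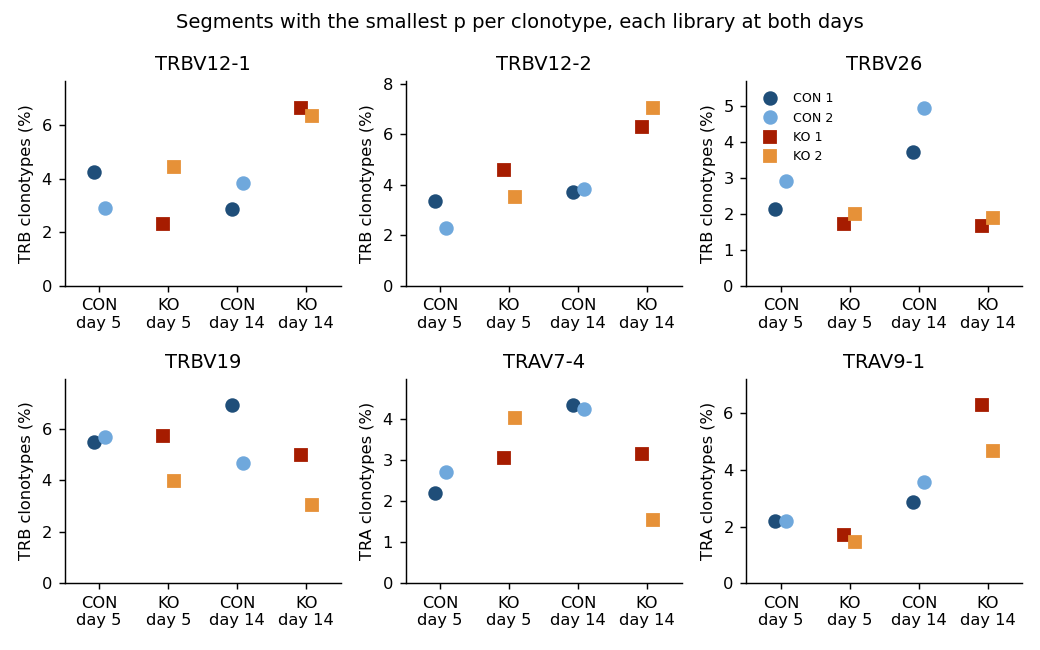
Percent of TRA or TRB clonotypes (y axes from 0) with each of the 6 segments of smallest p in the count per clonotype, 1 point per library at day 5 and day 14, circles for CON and squares for KO, with replicate numbers that carry no pairing between the days. TRBV12-1 and TRBV12-2 lie above 6% in both KO libraries of day 14 and below 4% in both CON libraries, and at day 5 TRBV12-1 overlaps while TRBV12-2 lies higher in both KO libraries.

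Per cell, 4 of the 6 segments with the smallest p belonged to the top clonotype of a library. TRAJ5 was in 0.971% and 0.415% of TRA cells in CON and in 13.3% and 1.02% in KO (log2 fold change 3.3 ± 1.25, edgeR adjusted p 0.844). TRBV20 was in 1.11%, 1.63%, 13.9% and 2.21% of TRB cells. Both belong to the top clonotype of KO 1. TRAV13-3 (0.243%, 0%, 0% and 13%) belongs to that of KO 2, and TRAV7-5 (1.62%, 18%, 1.59% and 1.71%) to that of CON 2. TRAJ34 was higher in both KO libraries (2.02%, 1.24%, 9.96% and 3.92%; log2 fold change 2.06 ± 0.74), in which it is the J segment of the second clonotype. TRAJ47 was in 0.405%, 0.415%, 2.19% and 1.02%.

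By segment group, no tested member passed the test in either count. Vbeta8 segments are the usual beta chains of iNKT cells, and the group was taken as 3 of them and the deposited joint name TRBV12-2+TRBV13-2, which may also hold the Vbeta5 segment TRBV12-2. Per cell KO lay above CON for 1 of the 4, the joint name, against 19% of all segments. Per clonotype KO lay above for 0 and below for 1 of the 4, against 14.8% and 21.6% of all segments. The Jbeta1 cluster had 6 of its 7 segments tested. Its members summed to 38.5%, 38.2%, 20.1% and 39.3% of TRB cells and to 30.9%, 31.3%, 29.6% and 33.6% of TRB clonotypes, so KO 1 stood apart in cells and not in clonotypes. The Jbeta2 cluster made up the rest, and its median log2 fold change was 0.3 per cell and 0.02 per clonotype. V-proximal Jalpha segments (TRAJ40 to TRAJ61), used by early alpha rearrangements, had a median of 0.18 over 12 segments per cell and -0.13 over 8 per clonotype. V-distal ones (TRAJ1 to TRAJ18), reached by later rearrangements, had 0.62 over 10 and 0.14 over 8. The V-distal sum per cell was 16.7% and 14.2% in CON and 36.1% and 18.6% in KO. In KO 1, TRAJ5 of its top clonotype made up 13.3% of TRA cells. Per clonotype the V-distal sum was 19% and 17.6% in CON and 24.3% and 15.8% in KO, which overlap. The median over all segments was 0.11 per cell and -0.01 per clonotype.

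Pairs of V and J segments were tested in the same way. Of 88 TRB V-J pairs tested per cell 1 passed (1.14% called), while 7 had an unadjusted p below 0.05. KO lay above both CON libraries for 21.6% of pairs and below for 12.5%. The pair called was TRBV17 / TRBJ1-1, in 109 cells of CON 1, 1 of CON 2 and 0 of both KO libraries (edgeR adjusted p 0.0359). Against a floor of 3 cells over both KO libraries it was at least 21.6-fold lower in KO, and 0 of 1271 KO cells with a TRB chain allows a share of up to 0.236%. The CON 1 cells held 4 TRB clonotypes, 1 of which had 101 of the 109 cells. The call was lost in all alternatives but the replicate block, and without CON 1 the pair fell under the count minimum, so it describes 1 clone of 1 library. The call was lost with DESeq2 (adjusted p 0.734) and with TMM factors (edgeR adjusted p 0.17).

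The next 5 pairs had most of their cells in 1 library each. TRBV19 / TRBJ1-4, the beta chain of the top CON 1 clonotype, was in 103, 0, 1 and 0 cells in the order CON 1, CON 2, KO 1, KO 2. TRBV14 / TRBJ1-2 was in 45, 1, 1 and 0, and TRBV13-1 / TRBJ2-2 in 2, 0, 17 and 2. TRBV26 / TRBJ2-3 was in 3, 11, 0 and 0 cells, at least 2.75-fold lower in KO against 3 cells over both KO libraries. TRBV2 / TRBJ2-3 was in 0, 1, 8 and 2. Those 5 had edgeR adjusted p of 0.128 to 0.446.

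Of 55 TRB V-J pairs tested per clonotype none passed (0% called) and 1 had an unadjusted p below 0.05. KO lay above for 21.8% of them and below for 14.5%. The smallest p was that of TRBV12-2 / TRBJ1-1, with 1, 1, 4 and 4 clonotypes (log2 fold change 2.25 ± 0.71, edgeR adjusted p 0.867). TRBV12-1 / TRBJ2-5, the segments of several large clones, had 1, 4, 8 and 4 clonotypes and 42, 69, 65 and 13 cells. TRBV16 / TRBJ2-7 had 5, 2, 4 and 9 clonotypes, TRBV10 / TRBJ2-4 had 2, 1, 3 and 4, TRBV19 / TRBJ1-3 had 2, 1, 5 and 2, and TRBV3 / TRBJ2-3 had 12, 6, 4 and 3. The chance that 2 TRB clonotypes share a V-J pair was 0.733% and 0.808% in CON and 0.76% and 0.817% in KO, which overlap.

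Of 44 TRA V-J pairs tested per cell none passed (0% called), and none had an unadjusted p below 0.05. KO lay above for 11.4% of them and below for 20.5%, and 16 of the 44 were at 0 in a whole group. TRAV13-3 / TRAJ50 was in 74 cells of KO 2 and in no CON cell, at least 44.4-fold higher in KO against 3 cells over both CON libraries. KO 1 had 0 cells of it too, so this bound rests on KO 2 alone. TRAV7-5 / TRAJ50 was in 1 and 111 CON cells and in no KO cell, at least 20.7-fold lower, a bound that rests on CON 2. TRAV7-4 / TRAJ5 was in 3, 1, 65 and 4 cells (log2 fold change 5.03 ± 2.34). TRAV12-2 / TRAJ39 and TRAV4-4 / TRAJ18 were in KO cells alone, 2 and 12 cells for the first (at least 8.4-fold higher) and 0 and 11 for the second (at least 6.6-fold higher, from KO 2 alone). TRAV5-4 / TRAJ27 was in 5 cells of each CON library and in no KO cell, at least 1.85-fold lower. All 6 had an edgeR adjusted p of 0.485. Per clonotype just 4 pairs reached the count minimum, too few for a test. The chance that 2 cells share a TRA V-J pair was 2.72% and 3.98% in CON and 2.67% and 2.41% in KO, and for 2 clonotypes 0.193% and 0.232% against 0.188% and 0.176%. Both are among the 10 measures that did not overlap.

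The pairing of alpha with beta V segments was tested last. Of 55 TRAV-TRBV pairs tested per cell none passed (0% called), and 1 had an unadjusted p below 0.05. KO lay above for 9.09% and below for 9.09%. All 6 pairs with the smallest p were in a single library: TRAV7-2 / TRBV5 (12 cells of CON 2), TRAV10 / TRBV14 (36 of CON 1), TRAV7-3 / TRBV12-1 (14 of KO 1), TRAV7-5 / TRBV13-1 (111 of CON 2), TRAV13-3 / TRBV13-1 (73 of KO 2) and TRAV5-4 / TRBV13-1 (18 of KO 1). The edgeR adjusted p was 0.749 for each.

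Of 12 TRAV-TRBV pairs tested per clonotype none passed (0% called), and none had an unadjusted p below 0.05. KO lay above for 25% and below for 8.33%. The pair below was TRAV7-6 / TRBV5, that of the most abundant recurrent combination, with 9, 7, 1 and 4 clonotypes (log2 fold change -1.19 ± 0.55, edgeR adjusted p 0.757). TRAV9-1 / TRBV3 had 4, 2, 4 and 5 clonotypes and TRAV12-2 / TRBV3 4, 0, 3 and 4, and both lay above in share. TRAV3-3 / TRBV3 had 15, 6, 1 and 7, TRAV10 / TRBV12-1 had 2, 2, 6 and 1, and TRAV11 / TRBV13-1 had 3, 3, 1 and 5, with overlap. The chance that 2 clonotypes share a TRAV-TRBV pair was 0.42% and 0.293% in CON and 0.309% and 0.504% in KO.

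The share of cells with a second alpha chain did not separate the genotypes. Of paired cells, 12.5% (95% exact binomial interval 10.7% to 14.5%) in CON 1 and 19.3% (16.4% to 22.4%) in CON 2 had 2 or more productive TRA chains, against 10.3% (7.68% to 13.3%) in KO 1 and 17% (14% to 20.3%) in KO 2. The genotypes overlapped, with an exact permutation p of 0.667 (two-sided). Thinned to 4 TRA UMIs a cell, among cells that had as many, the shares were 15.5%, 22.2%, 13.2% and 22.9%. With each TRB clonotype counted once they were 9.54%, 8.59%, 11.7% and 7.59%, a narrower range in another order.

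The split by beta clonotype size shows where the spread lies. Among cells whose TRB chain was in no other paired cell, 9.23%, 8.77%, 10.8% and 7.33% had a second TRA chain. Among cells of TRB clonotypes with 2 or more cells the shares were 14.2%, 24.4%, 9.77% and 25.8%. CON 2 and KO 2 are the libraries with the TRBV13-1 / TRBJ1-1 clone. In that clone, 101 of the 145 paired cells of CON 2 and 53 of the 83 of KO 2 carried both alpha chains, and in the TRBV17 / TRBJ1-1 clone of CON 1 75 of 97 did. The 2 largest TRB clonotypes of KO 1 had no cell with a second TRA chain. The same held for the largest of CON 1 (TRBV19 / TRBJ1-4, 98 cells) and the second of CON 2 (TRBV12-1 / TRBJ2-5, 45 cells). In the second of KO 2 (TRBV3 / TRBJ1-1) 12 of 21 cells carried both.

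**Figure D5:**
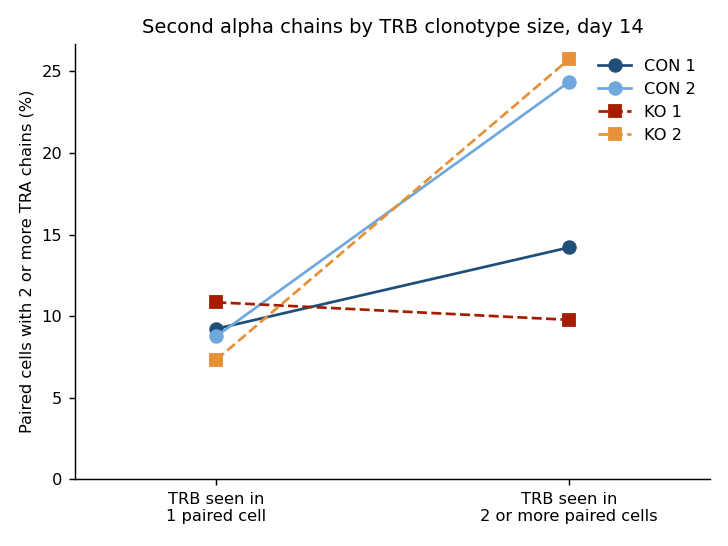
Percent of paired cells with 2 or more TRA chains (y axis from 0), for cells whose TRB chain is in 1 paired cell (left) and in 2 or more (right), with 1 line per day 14 library, solid for CON and dashed for KO. The libraries lie within 7.33% to 10.8% on the left and spread to 9.77% for KO 1 and 25.8% for KO 2 on the right.

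Dual-alpha clones are split when a clonotype is a pair of leading chains. In CON 2 the TRBV13-1 clone led with TRAV7-5 / TRAJ50 in 111 cells and with TRAV6-6 / TRAJ43 in 34, which gave the first and the third clonotype of that library. In KO 2 the TRBV13-1 clone was split into 73 and 10 cells, in CON 1 the TRBV17 clone into 68 and 29, and in KO 2 the TRBV3 / TRBJ1-1 clone into 12 and 9. By TRB alone the largest clones held 98, 145, 63 and 83 cells, or 8.24%, 20.8%, 13.2% and 14.5% of paired cells. Of TRB clonotypes with 2 or more cells, 15.3% and 11.5% in CON and 13% and 16.9% in KO had 2 or more leading TRA chains. In 13 of those 15 in CON 1, 6 of 9 in CON 2, 6 of 6 in KO 1 and 5 of 10 in KO 2, the leading chains were also seen together in 1 cell.

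Second beta chains were rarer. They were in 4.63% of paired cells (3.5% to 5.98%) in CON 1, 1.58% (0.792% to 2.81%) in CON 2, 3.56% (2.09% to 5.63%) in KO 1 and 2.62% (1.47% to 4.29%) in KO 2. KO lay between the CON libraries. The second chain was the leading TRB chain of another cell of the library in 37 of 55 such cells in CON 1, 4 of 11 in CON 2, 5 of 17 in KO 1 and 6 of 15 in KO 2. The part that droplets with 2 cells have in this was not tested.

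iNKT-type cells, with TRAV11 joined to TRAJ18, made up 3.24% (95% exact binomial interval 2.32% to 4.38%) and 3.18% (2.03% to 4.74%) of TRA cells in CON and 3.78% (2.29% to 5.85%) and 5.8% (4.05% to 8.01%) in KO. KO lay above CON, by less than the counting interval in KO 1. As a share of TRA clonotypes they overlapped, with 1.65%, 2.28%, 1.57% and 1.86% in the order CON 1, CON 2, KO 1, KO 2. That share counts nucleotide versions of the alpha chain (8, 7, 4 and 6), so unrelated cells with the same version count once. Paired iNKT-type clonotypes numbered 39, 22, 18 and 28, out of 515, 316, 265 and 342 clonotypes. The invariant loop of iNKT-type cells had the same most common nucleotide version in all 4 libraries, in 15, 9, 8 and 14 cells.
iNKT-type alpha: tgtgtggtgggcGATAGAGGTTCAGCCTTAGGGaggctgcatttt
The largest iNKT-type clonotype had 1, 2, 1 and 4 cells, so these cells were nearly all of separate pairs. MAIT-type cells, with TRAV1 joined to TRAJ33, numbered 0, 1, 0 and 0, and a count of 0 allows up to 0.243% in CON 1, 0.598% in KO 1 and 0.512% in KO 2.

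The mean length of the beta loop was higher in both KO libraries than in both CON libraries. The mean TRB CDR3 length was 13.50 and 13.57 residues in CON and 13.76 and 13.82 in KO over cells, and 13.85 and 13.87 against 13.90 and 13.95 over clonotypes. The difference was 0.254 residues over cells and 0.065 over clonotypes, each with an exact permutation p of 0.333 (two-sided), the smallest possible. At day 5 the mean differences had the other sign, -0.097 residues over cells and -0.046 over clonotypes. Over cells the day 5 means were 14.02 ± 0.10 (SD, n = 2 libraries) in CON and 13.92 ± 0.10 in KO. The TRBV5 / TRBJ2-7 protein of 11 residues with the most nucleotide versions was in 8.25% and 0.376% of TRB cells in CON and 0.366% and 3.31% in KO. Other TRBV5 / TRBJ2-7 loops of 11 residues are not in those shares. The recurrent combination with such loops held 8.49% and 7.33% of paired cells in CON and 0.209% and 3.85% in KO. TRA CDR3 length overlapped between the genotypes, with 13.51, 13.70, 13.77 and 13.66 residues over cells.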

How the data were processed

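Each contig has UMI counts and read counts as deposited, whole and not normalized, per the file headers. The submitters' processing notes name Cell Ranger 3.1.0, Seurat 4.0.0, CASAVA 1.8, R 4.1.2 and the build GRCm38 (mm10), without a role for each. RNA libraries of these groups are not analysed here.

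Contigs that the authors called cell, high-confidence and productive were kept, and a cell was represented by its TRA and TRB chains of highest UMI count (ties by reads). TRAV names of duplicated copies were merged (47 of 88 names were left). Positions of 116 of 124 segments came from RefSeq genes of GRCm38.p6. The deposited counts gave 4 libraries of 11441 to 31936 UMIs, and intervals are Clopper-Pearson at 95%. The upper limits given for a count of 0 are instead 3 divided by the number of cells. Equal depth was an exact hypergeometric expectation. Segments with 20 or more, and pairs with 10 or more, cells or clonotypes over the 4 libraries were tested by the quasi-likelihood F test of edgeR 4.0.16 (R 4.3.3), with the library total of the chain as offset. Benjamini-Hochberg adjustment ran over all features of a fit, with a threshold of 0.05. The 27 library measures had two-sided exact permutation tests (6 relabelings). Scripts were tested on simulated data. In each fit the 6 features with the smallest p are named, then the 3 most frequent clonotypes of each library and the 4 TRB amino acid clonotypes with the most nucleotide versions, ties by cells. The members, lists and measures were chosen with earlier results of these data known. Alternatives were another clonotype definition, depth, UMI minimum, normalization, filter, DESeq2 1.42.0, all 8 libraries, TRAV copies apart, and leaving out doublets, iNKT-type cells or 1 library.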

Additional observations from a re-analysis of the deposited data

How the results depend on the processing

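The limit is the number of libraries: with 2 against 2 the exact permutation test used for the library measures cannot go below p = 0.333, and 1 clone sets many counts per cell. The 10 measures whose groups did not overlap kept their direction in 100 of 101 alternative values. The exception was the number of clonotypes with all paired cells, which differed by -112 and counts depth. The 2 alternatives added after seeing the data were equal depth for clonotypes of 10 or more cells, and leaving out the largest clonotype of each library. The 17 measures that overlapped turned more often (30 of 140 values). Leaving out 1 library could turn only measures that overlap, because in the 10 others both KO values lay beyond both CON values. That part of the contrast follows from how the 10 were picked and does not show that they are stable. The largest clonotype differed by -0.693 points with the deposited identifier and with TRB alone, and by -2.78 without the largest clonotype. Second TRB chains differed by 0.231 points with 2 or more UMIs a chain and by 0.143 without iNKT-type cells. Without iNKT-type cells the chance that 2 clonotypes share a pair differed by -0.0055 points for TRB V-J and by -0.00093 for TRAV-TRBV.

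The lowest and highest differences on leaving out 1 library, where the direction turned, were -2.98 and 4.73 points for the largest clonotype, -1.35 and 0.213 for 2 cells sharing a clonotype, -2.36 and 0.242 for 2 cells and -0.0200 and 0.0551 for 2 clonotypes sharing a TRB V-J pair, and -1.33 and 0.286, and -0.048 and 0.147, for a TRAV-TRBV pair. They were -6.21 and 65.6 for convergent pairs per 1000000, -0.809 and 0.982 points for TRB proteins with 2 or more versions, and -0.379 and 3.53 for TRB clonotypes with 2 or more leading TRA. For second TRA chains they were -5.65 and 1.07 over cells and -1.47 and 2.64 over clonotypes, and for second TRB chains -1.54 and 1.51, and -0.599 and 1.91. For TRB cells with no TRA they were -0.127 and 8.52, for the iNKT-type share of TRA clonotypes -0.564 and 0.0665, and for TRA CDR3 length over clonotypes -0.0713 and 0.0084 residues.

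TRB V-J pairs called per cell fell from 1 to 0 with DESeq2, TMM factors, all 8 libraries, 2 or more UMIs, no filter, without doublets, without iNKT-type cells and without any 1 library (lowest 0, highest 0). Same-numbered libraries share only a number: the correlation of their deviations was -0.0745 over 88 segments. With a replicate block 2 pairs were called, TRBV17 / TRBJ1-1 and TRBV19 / TRBJ1-4, and the block changed no other count. Calls of segments per cell ranged from 0 to 1 on leaving out a library: TRAV13-3 was called without CON 1. TRAV7-5 per cell turned, with log2 fold changes from -3.43 to 0.029.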

Other observations

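Of all clonotypes, 3 had the same nucleotides for both chains in more than 1 library of day 14. The pair TRAV9-1 / TRAJ23 with TRBV3 / TRBJ2-7 was in all 4, with 11, 1, 2 and 1 cells in the order CON 1, CON 2, KO 1, KO 2. Its chains had 2 to 12 TRA UMIs and 3 to 29 TRB UMIs in CON 1, 6 and 14 in CON 2, 7 and 4 to 12 in KO 1, and 6 and 29 in KO 2. Its chains are printed with the codons between the first 4 and the last 4 in capitals.
Alpha: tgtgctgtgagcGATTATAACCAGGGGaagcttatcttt
Beta: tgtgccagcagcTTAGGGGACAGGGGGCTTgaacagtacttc
The other 2 pairs were in CON 1 and KO 2, with 1 cell in each: TRAV7-6 / TRAJ56 with TRBV13-1 / TRBJ2-3, and TRAV9-2 / TRAJ27 with TRBV3 / TRBJ2-7. In CON 1 the weaker chain of these cells had 2 TRB UMIs for the first and 1 TRA UMI for the second. Transfer of molecules between libraries was not tested.

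Cells with a TRB but no TRA chain made up 12.4% and 12.8% of TRB cells in CON and 12.5% and 21.1% in KO. Their median TRB chain had 8, 8, 7 and 8 UMIs in the order CON 1, CON 2, KO 1, KO 2, against 11, 12, 11 and 10.5 in paired cells. KO 2, with the highest share, also had the lowest median TRA UMIs, 4 against 5 in each of the other 3 libraries, and the part of capture in that share was not tested.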
